A study of Mus musculus with 6 samples.

Results

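The 34 genes described here are p53 itself (Trp53), its regulators Mdm2 and Mdm4, genes that p53 is known to switch on, and the regulators and executioners of apoptosis. They were chosen by name, with earlier results of these data known. A row for each of the 34 was found among the 23358 rows of the gene table. The RNA came from C57BL/6 mouse marrow-derived mesenchymal stem cells at passage 6 to 12, adherent cells that can form bone, fat and cartilage, and was sequenced. One group of 3 libraries came from cells transfected with 50 nM of an siRNA against Dia2, the formin encoded by Diaph3, and the other group of 3 libraries from cells transfected with a non-targeting control siRNA. Both groups were left to adhere for 24 h, transfected overnight with a lipid reagent, and harvested 24 h after the transfection medium was replaced. The passage is given only as a range for all libraries, and no dose is given for the control siRNA. Whether replicates were separate cultures is not stated, so the p-values measure how these samples vary, and that variation may be technical. The cells were studied in bulk, so fewer cells of a type and less RNA per cell cannot be told apart.

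p53 is a transcription factor that is held at low levels by Mdm2, a ubiquitin ligase whose own gene p53 switches on. Stress stabilises the p53 protein, so the abundance of its mRNA is only 1 of the things that set its activity. Its targets halt the cell cycle, help to repair DNA, or tilt the BCL2 family towards cell death. In that family Bax and Bak1 open the outer mitochondrial membrane, BH3-only proteins promote this, and Bcl2, Bcl2l1 and Mcl1 prevent it. Cytochrome c released from mitochondria then assembles Apaf1 and caspase-9 into the apoptosome, while death receptors at the surface act through caspase-8.

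Several members carry a likeness of the p53 response element beside an annotated start site, shown here because it is the sequence through which p53 acts on its targets. The element is a pair of 10-base decamers, searched without a spacer over 250 bases before to 50 bases after each RefSeq start site (GRCm38.p6), with at most 3 mismatches of 20 and the central C and G of each decamer kept. It reads the same on both strands. Of the 34 genes, 26 had a promoter in the RefSeq table, and 5 of these held such a match, against 441 of 27025 genes in all (1.63%). The gene list was drawn up from known p53 targets, so this count describes the list and is no independent evidence. Capitals mark the bases that match the element and lower case the mismatches and 5 flanking bases on each side:
Ccng1: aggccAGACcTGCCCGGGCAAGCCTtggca
Bbc3: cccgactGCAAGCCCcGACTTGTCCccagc
Aen: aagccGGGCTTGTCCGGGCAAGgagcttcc
Sesn1: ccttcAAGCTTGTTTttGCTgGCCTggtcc
Trp53: cggaaGGACTTGCCCttACTTGTTatggcg

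The Ccng1 match (chromosome 11, 40755462 to 40755481, minus strand) had 1 mismatch, a closeness reached in 22 of the 27025 genes, and began 195 bases before the start site. The Bbc3 match (chromosome 7, 16309486 to 16309505, plus strand) lay 97 bases before it and the Aen match (chromosome 7, 78895937 to 78895956, plus strand) just behind it. Those of Sesn1 (chromosome 10, 41887266 to 41887285, plus strand) and Trp53 (chromosome 11, 69580284 to 69580303, plus strand) began 173 and 75 bases before it. The Sesn1 match lies beside an internal alternative start, within the counted gene (chromosome 10, 41810574 to 41908436), and not beside its first start site. These 5 genes did not move one way, since Bbc3, Aen and Sesn1 rose, Trp53 fell and Ccng1 did not pass the test. A match is a likeness of letters and was not tested as a binding site.

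Total gene counts ranged from 78529650 to 95573070 in Dia2 libraries and from 70538768 to 110006338 in control libraries. The counts are all even, as if each fragment had been entered as 2, so a floor of 3 fragments is 6 counts, or 0.0534 to 0.0870 CPM, counts scaled to library size by library, counting error only. The ribosomal precursor Rn45s took 10.9% of the counts in Dia2 replicate 1 and 11.7% in control replicate 3, against 6.00% to 7.41% in the other libraries. The targeted Diaph3 was 10.7-fold lower, at 7.76 ± 0.532 CPM with Dia2 siRNA and 83.2 ± 2.7 CPM with control siRNA (SD, n = 3 each). Of 10 stem cell markers 9 were tested and all 9 rose, where 29.3% of all genes tested rose. The markers summed to 3368 to 3549 CPM in Dia2 libraries and 1483 to 1729 CPM in control libraries. Cxcl12 alone gave a large part of these sums, with means of 2097 CPM with Dia2 siRNA and 815 CPM with control siRNA. Thy1 was near 0 in both groups, with at most 10 counts in a library. Blood and macrophage markers summed to 12.2 to 13.3 CPM in Dia2 libraries and 20.3 to 22.1 CPM in control libraries, with Ptprc, which defines blood cells, at no more than 8 counts. Endothelial markers summed to 1.75 to 2.2 CPM in Dia2 libraries and 2.06 to 2.17 CPM in control libraries. The part of these cell types in the results was not tested.

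Most of the 34 genes differed between the groups, in both directions and mostly by less than 2-fold. All 34 passed the filter on low counts. With Dia2 siRNA 12 rose, 15 fell and 7 did not pass an adjusted p of 0.05 from edgeR's quasi-likelihood test. That is 27 genes or 79.4%, where 59.2% of all 14151 genes tested passed, with 29.3% higher and 29.9% lower. Scarce genes pass less often. Among genes with a mean of at least 1 CPM 66.4% passed, against 26 of 33 members. Because the members were chosen with earlier results of these data known, their shares describe the list and are no evidence of an excess. The 3 libraries of one group lay wholly above those of the other for each of the 27 genes, as they did for 64.6% of all genes. The median log2 fold change of the 34 genes was -0.03 (0.01 over all genes) and the median size without its sign 0.42 (0.30 over all genes). At least 2-fold changes were made by 4 members, the falls of Apaf1 and Zmat3 and the rises of Fas and Perp, where 8.58% of all genes changed that much.

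**Figure D1:**
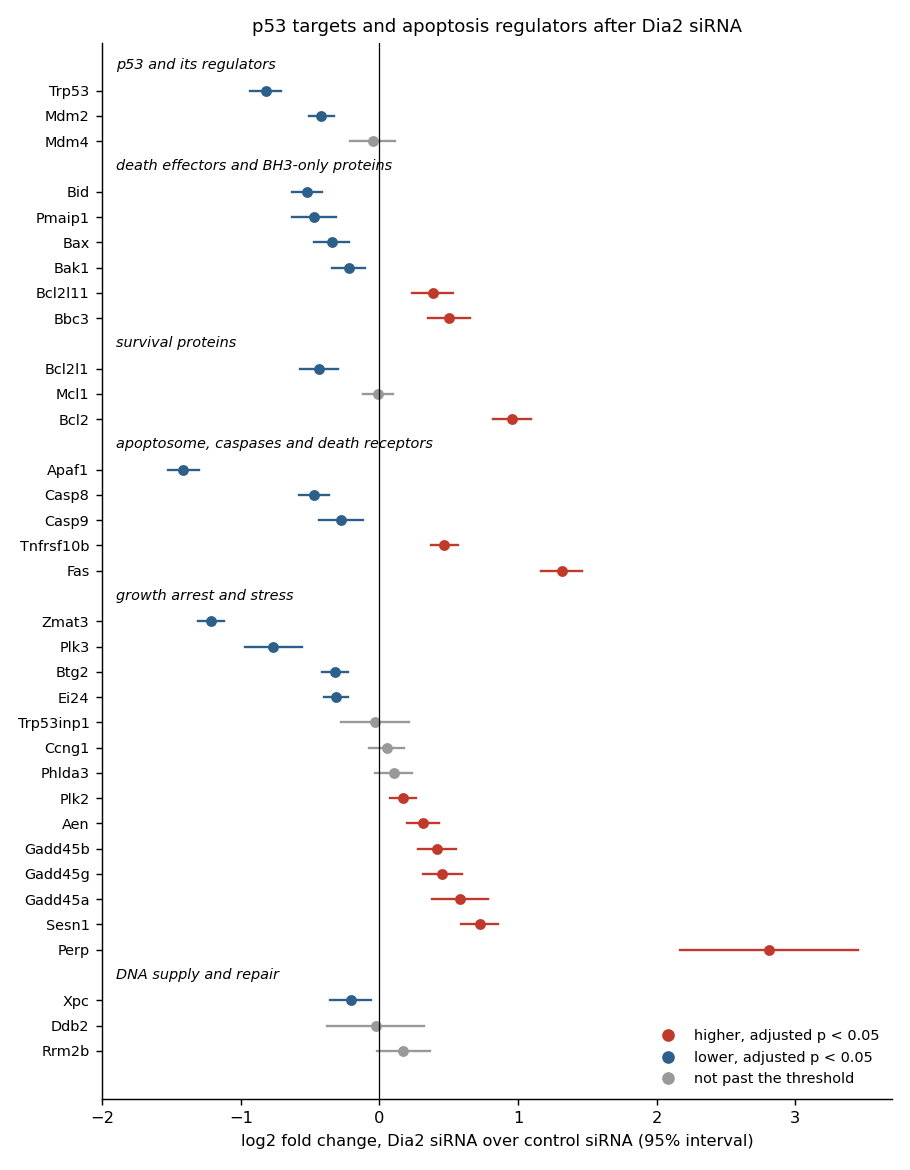
Log2 fold change of each of the 34 genes, Dia2 siRNA over control siRNA, with its 95% interval, grouped by role. Red points rose and blue points fell at an adjusted p under 0.05, and grey points did not pass; Apaf1 at -1.41 and Perp at 2.81 mark the ends.

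Levels per length were compared as RPKM, counts per kilobase of the listed gene length, scaled to depth, as deposited. Ccng1, a cyclin that binds protein phosphatase 2A and Mdm2, was the most abundant of the 34 in both groups, at 204 ± 2.05 RPKM with Dia2 siRNA and 202 ± 5.17 RPKM with control siRNA (SD, n = 3 each). Bax stood at 132 ± 8.54 and 173 ± 20.5 RPKM, and Phlda3 at 141 ± 11.6 and 135 ± 16.7 RPKM. Thus a pore-forming death protein and a pair of p53 targets were the most abundant transcripts of the set. Perp and Ddb2 were the scarcest, below 1 RPKM in both groups.

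Trp53 mRNA and the mRNA of its main inhibitor were both lower. Trp53 (chromosome 11, 69580359 to 69591873, GRCm38, plus strand) had 69.5, 73.0 and 70.3 CPM in Dia2 replicates 1, 2 and 3, against 131, 128 and 117 CPM in control replicates 1, 2 and 3. Each Dia2 library lay far below the lowest control library. The log2 fold change was -0.82 ± 0.05 (SE; adjusted p = 8.57e-08), a 1.76-fold fall.

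Mdm2, the ligase that marks p53 for destruction and is itself a p53 target, had 146, 147 and 146 CPM in Dia2 libraries and 194, 190 and 201 CPM in control libraries. The Dia2 libraries were nearly equal and all below the controls (log2 fold change -0.42 ± 0.04, adjusted p = 4.41e-06). Mdm4, a relative that blocks p53 without a strong ligase activity of its own, had 38.9 ± 2.05 CPM with Dia2 siRNA and 40.2 ± 4.08 CPM with control siRNA (SD, n = 3 each). It did not pass the test, and the 95% interval of its log2 fold change ran from -0.21 to 0.12. As a ratio of RPKM, Mdm2 stood at 1.3, 1.24 and 1.28 times Trp53 in Dia2 libraries and at 0.914, 0.918 and 1.06 times in control libraries.

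Among the 6 death effectors and BH3-only genes, 4 fell and 2 rose. Of all genes tested 59.2% passed, and of those with a mean of at least 1 CPM 66.4%. Bax, which forms pores in the outer mitochondrial membrane, had 134, 140 and 140 CPM in Dia2 libraries and 187, 180 and 160 CPM in control libraries. The groups did not overlap, with control replicate 3 nearest to the Dia2 libraries (log2 fold change -0.35 ± 0.06, adjusted p = 0.000229). Of the annotated Bax exon bases, 22.2% are shared with another gene model on the same strand, so some of its counts may be uncertain. Its partner Bak1 fell less, at 140 ± 0.925 CPM with Dia2 siRNA and 163 ± 12.6 CPM with control siRNA (SD, n = 3 each). Its log2 fold change was -0.22 ± 0.05 (adjusted p = 0.00404). Of the annotated Bak1 exon bases, 10.7% lie opposite an antisense gene, and the strand setting of the counts is not stated.

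Bid, the BH3-only protein that caspase-8 cleaves to carry a death-receptor signal to mitochondria, fell 1.44-fold. It had 38.9, 38.3 and 37.3 CPM in Dia2 libraries and 54.8, 55.4 and 54.3 CPM in control libraries. The spread within each group was small beside the gap (-0.52 ± 0.05, adjusted p = 2.02e-06). Pmaip1, which encodes the p53 target Noxa, fell as well, at 24.8 ± 0.914 CPM with Dia2 siRNA and 34.4 ± 3.41 CPM with control siRNA (SD, n = 3 each; -0.47 ± 0.07, adjusted p = 0.000145).

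The other BH3-only genes went up. Bbc3, which encodes the p53 target Puma, had 12.6, 13.6 and 13.8 CPM in Dia2 libraries and 9.79, 9.59 and 8.85 CPM in control libraries. All Dia2 libraries were higher (log2 fold change 0.50 ± 0.07, adjusted p = 6.45e-05). Bcl2l11, which encodes Bim, a BH3-only protein often controlled by FOXO factors, rose at 14.3 ± 0.894 CPM against 11.0 ± 0.378 CPM with control siRNA (SD, n = 3 each; 0.38 ± 0.07, adjusted p = 0.000403). Hence the p53 targets Bbc3 and Pmaip1, whose products both bind survival proteins, changed in opposite directions.

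The 3 survival genes each did something different. Bcl2 (chromosome 1, 106538179 to 106714290, GRCm38, minus strand) rose 1.94-fold, with 39.5, 41.0 and 40.5 CPM in Dia2 libraries and 19.96, 20.04 and 22.5 CPM in control libraries. Each Dia2 library exceeded every control library by a wide margin (log2 fold change 0.95 ± 0.06, adjusted p = 1.21e-07). Bcl2l1, which encodes Bcl-xL, fell 1.35-fold, with 45.2, 46.0 and 46.8 CPM in Dia2 libraries and 66.2, 64.1 and 56.1 CPM in control libraries (-0.44 ± 0.06, adjusted p = 6.95e-05). Mcl1, whose protein turns over within a short time, did not pass, at 146 ± 4.33 CPM with Dia2 siRNA and 147 ± 8.12 CPM with control siRNA (SD, n = 3 each; 95% interval -0.12 to 0.10).

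Per length, Bcl2 was the least abundant of the survival genes in both groups, at 4.33 ± 0.252 RPKM with Dia2 siRNA and 2.29 ± 0.0588 RPKM with control siRNA, while Mcl1 stood at 34.7 ± 0.599 and 35.8 ± 0.819 RPKM (SD, n = 3 each). The ratio of Bcl2 to Bax RPKM was 0.0330, 0.0328 and 0.0325 in Dia2 libraries and 0.0120, 0.0125 and 0.0158 in control libraries. All Dia2 ratios were higher, yet Bax RPKM exceeded Bcl2 RPKM many times over in every library. Of the annotated Bcl2 exon bases, 6.09% lie opposite an antisense gene, and the strand setting of the counts is not stated.

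The apoptosome gene Apaf1 showed the largest fall of the 34. Apaf1 (chromosome 10, 90989311 to 91082743, GRCm38, minus strand), the scaffold that recruits caspase-9, had 51.3, 55.2 and 52.3 CPM in Dia2 libraries and 139, 136 and 149 CPM in control libraries. The groups were far apart (log2 fold change -1.41 ± 0.05, adjusted p = 1.05e-09), a 2.67-fold fall. Casp9, which the apoptosome activates, was also lower, at 14.4 ± 0.445 CPM with Dia2 siRNA and 17.5 ± 1.55 CPM with control siRNA (-0.28 ± 0.07, adjusted p = 0.00521). Casp8, the initiator that death receptors recruit, fell at 38.1 ± 0.491 and 52.8 ± 1.48 CPM (-0.47 ± 0.05, adjusted p = 6.25e-06).

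The death receptor genes moved the other way. Fas (chromosome 19, 34290659 to 34327770, GRCm38, plus strand) had 22.9, 24.1 and 21.4 CPM in Dia2 libraries and 8.76, 9.13 and 9.66 CPM in control libraries. Every Dia2 library was well above the controls (log2 fold change 1.31 ± 0.07, adjusted p = 1.78e-08), a 2.49-fold rise. Tnfrsf10b, the mouse receptor for the death ligand TRAIL, rose 1.38-fold, with 130, 129 and 134 CPM in Dia2 libraries and 96.9, 96.4 and 91.3 CPM in control libraries (0.47 ± 0.04, adjusted p = 2.32e-06). Both receptors rose while the caspases and the scaffold of this group fell.

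**Figure D2:**
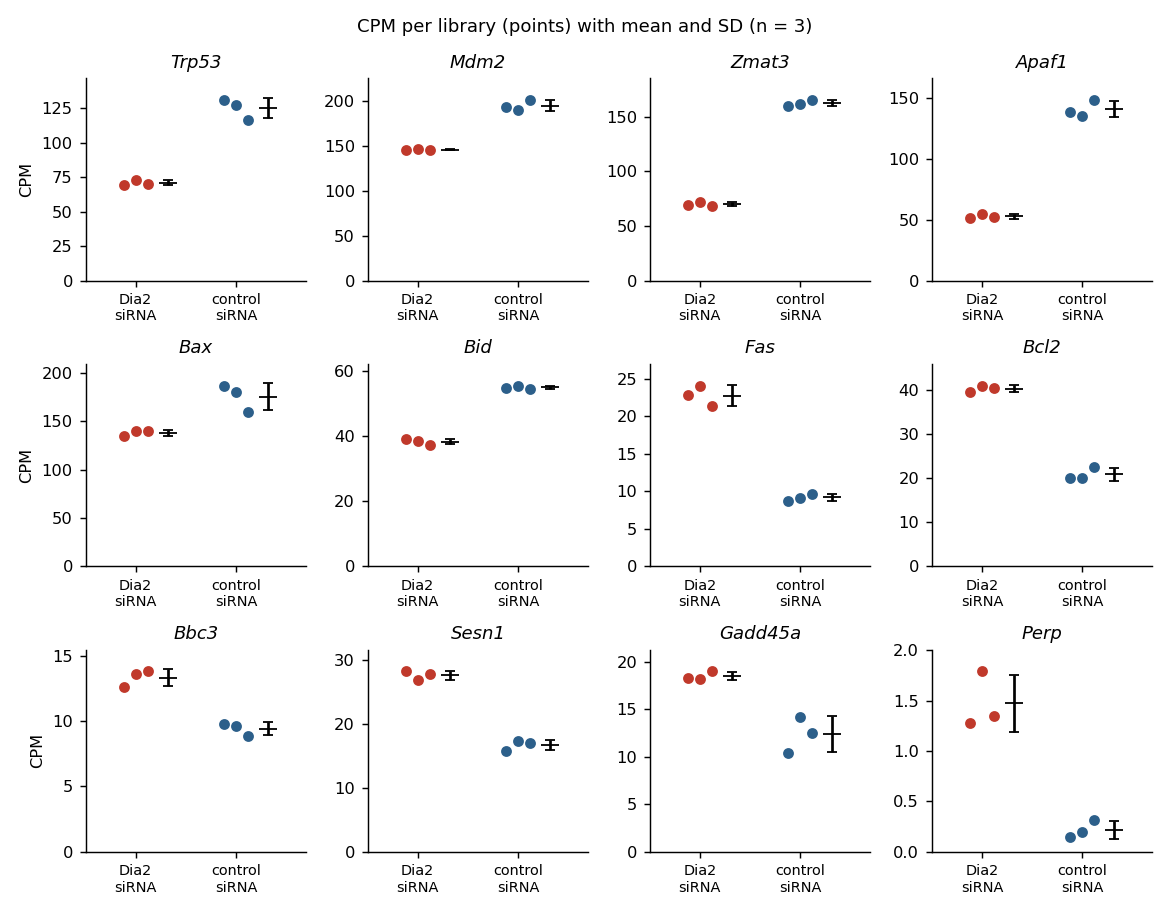
CPM per library for 12 of the genes, each panel with its own axis from 0, Dia2 siRNA libraries in red and control siRNA libraries in blue, and the mean with its SD (n = 3) in black. The groups are separate in each panel; Trp53, Mdm2, Zmat3, Apaf1, Bax and Bid are lower and Fas, Bcl2, Bbc3, Sesn1, Gadd45a and Perp higher with Dia2 siRNA.

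Of 14 growth arrest and stress genes, 7 rose, 4 fell and 3 did not pass. That is 78.6%, where 59.2% of all genes tested passed, and 66.4% of those with a mean of at least 1 CPM. Perp, among the 14, had a lower mean over all libraries. The largest fall was that of Zmat3 (chromosome 3, 32334794 to 32365665, GRCm38, minus strand), a p53-induced zinc finger protein that binds RNA. It had 69.3, 72.2 and 68.4 CPM in Dia2 libraries and 160, 161 and 165 CPM in control libraries. Both groups were tight and did not overlap (log2 fold change -1.21 ± 0.04, adjusted p = 1.04e-09). Plk3, a polo-like kinase of the stress response, fell 1.7-fold, with 5.40, 5.54 and 5.11 CPM in Dia2 libraries and 9.92, 9.25 and 8.01 CPM in control libraries (-0.76 ± 0.09, adjusted p = 2.12e-05). Btg2, an antiproliferative protein that promotes mRNA deadenylation, and Ei24, a membrane protein of the endoplasmic reticulum, fell at -0.32 ± 0.04 and -0.31 ± 0.04 on the log2 scale (adjusted p = 5.11e-05 and 3.52e-05).

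Perp had the largest rise of the 34 but was scarce. Perp (chromosome 10, 18845071 to 18857072, GRCm38, plus strand) encodes a membrane protein of desmosomes and is a target of p53 and of its relative p63. It had 96, 172 and 126 counts in Dia2 libraries and 16, 16 and 22 counts in control libraries, or 1.28, 1.79 and 1.35 CPM against 0.142, 0.195 and 0.319 CPM. All were above the floor, and the Dia2 libraries were all higher (log2 fold change 2.81 ± 0.29, adjusted p = 5.85e-06).

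Sesn1, a sestrin that restrains mTORC1, rose 1.65-fold, with 28.2, 26.8 and 27.7 CPM in Dia2 libraries and 15.8, 17.3 and 16.9 CPM in control libraries (log2 fold change 0.72 ± 0.06, adjusted p = 8.93e-07). The 3 Gadd45 genes, small acidic proteins induced by stress and able to activate p38 and JNK signalling, all rose. Gadd45a, the p53 target among them, had 18.3, 18.2 and 19.02 CPM in Dia2 libraries and 10.5, 14.2 and 12.5 CPM in control libraries (0.58 ± 0.09, adjusted p = 0.000183). The control libraries were the more spread, and 19.5% of its exon bases lie opposite an antisense gene. Gadd45b and Gadd45g rose at 0.42 ± 0.06 and 0.45 ± 0.06 (adjusted p = 0.000108 and 6.2e-05).

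Smaller rises were those of Aen, a nuclease that acts in apoptosis, at 0.32 ± 0.05 (adjusted p = 0.000256) and of Plk2, another polo-like kinase, at 0.17 ± 0.04 (adjusted p = 0.00479). Of the member promoters searched, that of Ccng1 held the closest match to the p53 element. Ccng1 had 898, 855 and 819 CPM in Dia2 libraries and 797, 791 and 894 CPM in control libraries. These groups overlapped because control replicate 3 was as high as the Dia2 libraries (0.05 ± 0.06, adjusted p = 0.462; 95% interval -0.07 to 0.18). Without control replicate 3 it passed at 0.11 (adjusted p = 0.0130). Phlda3, which competes with AKT for membrane lipids, did not pass at 0.10 ± 0.06 (95% interval -0.03 to 0.24). Trp53inp1, a stress-induced nuclear protein, had 66.5, 61.0 and 59.8 CPM in Dia2 libraries and 54.5, 59.4 and 78.2 CPM in control libraries. Its control libraries enclosed the Dia2 libraries (-0.04 ± 0.11, adjusted p = 0.807), and without control replicate 3 it was higher with Dia2 siRNA, at 0.13 (adjusted p = 0.0371).

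Of the 3 genes of DNA supply and repair 1 fell and the others did not pass (33.3%). Of all genes tested 59.2% passed, and of those with a mean of at least 1 CPM 66.4%. Xpc, which recognises DNA lesions in nucleotide excision repair, had 11.9, 12.5 and 11.8 CPM in Dia2 libraries and 13.8, 15 and 13.1 CPM in control libraries. The Dia2 libraries were lower by a narrow margin (-0.21 ± 0.07, adjusted p = 0.0195), and the call was lost without control replicate 2 (adjusted p = 0.0843), Dia2 replicate 1 (0.0660) or Dia2 replicate 3 (0.0689). Ddb2, another damage sensor, was scarce at 1.54 ± 0.138 and 1.58 ± 0.196 CPM (SD, n = 3 each) and shares 26.7% of its exon bases with Acp2 on the other strand. Rrm2b, the p53-induced subunit of ribonucleotide reductase, had 15.7, 15.1 and 14.8 CPM in Dia2 libraries and 11.9, 13.2 and 15.5 CPM in control libraries. It did not pass (0.17 ± 0.09, adjusted p = 0.108) but did without control replicate 3 (0.28, adjusted p = 0.000996).

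**Figure D3:**
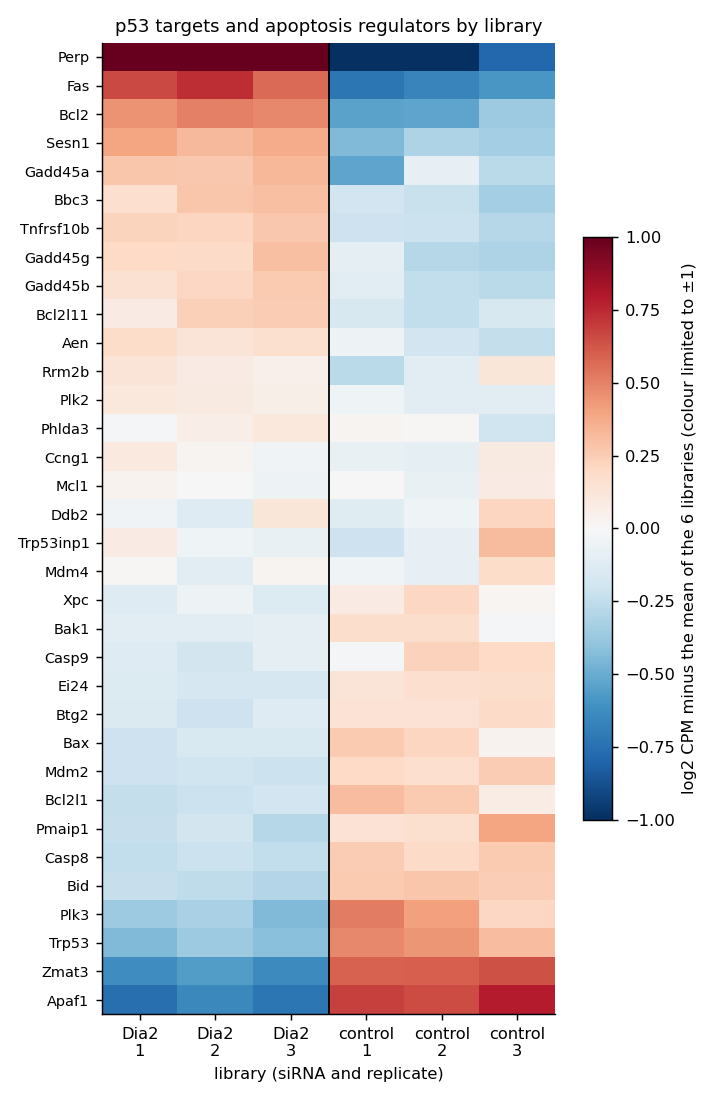
Log2 CPM of the 34 genes in each library minus the mean of the 6 libraries, sorted by fold change, with Dia2 siRNA libraries on the left. Red is above and blue below the mean, with colours limited to 1 unit either way; control replicate 3 differs from the other controls in several rows, among them Trp53inp1, Rrm2b and Pmaip1.

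The spread between libraries was uneven. The median coefficient of variation over the 34 genes was 2.92% among Dia2 libraries and 6.78% among control libraries. For 22 of the 34 genes the control library farthest from its group's median was replicate 3, the one with the high share of Rn45s. The part of that RNA was not tested. Over all genes control replicate 3 stood apart too. Its chi-square per degree of freedom, on halved counts, was 90.7 against control replicate 1 and 82.2 against control replicate 2. Between control replicates 1 and 2 it was 7.04. The distance of control replicate 3 is thus not particular to the 34 genes. Among Dia2 libraries replicate 1, also rich in Rn45s, gave 32.4 against replicate 2 and 60.3 against replicate 3. Dia2 replicates 2 and 3 gave 10.5 against each other. Without the Rn45s-rich library of each group, 13 members were higher and 15 lower, and 62.5% of the 14378 genes tested in that setting passed, 4365 higher and 4619 lower, so calls rose over all genes too.

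Other genes of the pathway were taken from lists that do not hold the 34. The 76 of them tested all had a mean of at least 1 CPM. Each list's count is therefore read against the 66.4% of such genes that passed, and not the 59.2% of all genes. That share comes from a fit of such genes only, while the count of each list comes from the fit of all genes tested. Of the 76, 25 rose and 28 fell, or 25 and 25 when only genes with that mean were tested. The latter is about the share of all such genes, so these lists are no evidence of an excess. Of 15 kinases and regulators tested 3 rose and 7 fell (66.7%). Hipk2, a kinase that phosphorylates p53, fell 2.64-fold to 22.4 ± 0.448 CPM, against 58.9 ± 5.40 CPM with control siRNA (SD, n = 3 each; -1.40 ± 0.07, adjusted p = 1.42e-08). Chek1, the checkpoint kinase of the replication stress response, fell (-0.59 ± 0.09, adjusted p = 0.000135). Trp63, the p53 relative that also acts on Perp, rose 2.25-fold, at 14.2 ± 0.34 and 6.33 ± 0.728 CPM (1.17 ± 0.09, adjusted p = 2.73e-07), and Ppp1r13l, an inhibitor of p53, rose at 0.47 ± 0.10 (adjusted p = 0.0016). The median of the 15 was -0.07 on the log2 scale.

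Of 20 other p53 targets 10 rose and 4 fell (70.0%), with a median log2 fold change of 0.08. Cdkn1a, the cyclin-dependent kinase inhibitor p21 and the classical arrest target, had 232, 227 and 231 CPM in Dia2 libraries and 262, 260 and 254 CPM in control libraries. It was slightly lower in each Dia2 library (-0.17 ± 0.04, adjusted p = 0.00394). Fdxr, a mitochondrial ferredoxin reductase, fell 2.08-fold (-1.06 ± 0.08, adjusted p = 4.1e-07). Cd82, a tetraspanin, rose 1.66-fold, Gdf15, a secreted stress factor, 1.48-fold and the scarcer Sfn, an adaptor of the 14-3-3 family, 1.48-fold (log2 fold changes 0.73, 0.57 and 0.56; adjusted p = 5.16e-07, 9.51e-05 and 0.00281).

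Among 11 other BCL2 family and inhibitor of apoptosis genes tested 5 rose and 4 fell (81.8%), with a median of 0.11. The BH3-only gene Bmf rose 1.94-fold to 22.6 ± 1.61 CPM, against 11.7 ± 0.746 CPM with control siRNA (SD, n = 3 each; adjusted p = 3.9e-07). The mitophagy gene Bnip3 rose 1.92-fold and its relative Bnip3l fell 1.38-fold (adjusted p = 4.42e-08 and 2.42e-05). Xiap, which inhibits caspases, fell 1.60-fold (-0.68 ± 0.09, adjusted p = 5.45e-05).

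Of 17 other caspases, adaptors and executioners 3 rose and 7 fell, with a median of -0.03. That is 58.8%, near the 59.2% over all genes and below the 66.4% of those with a mean of at least 1 CPM. The count shows nothing particular to these genes. Cflar, which keeps caspase-8 in check at death receptors, fell 1.73-fold to 69.7 ± 0.879 CPM, against 120 ± 6.12 CPM with control siRNA (SD, n = 3 each; -0.79 ± 0.05, adjusted p = 6.54e-08). The mitochondrial genes Htra2 and Diablo, whose proteins oppose inhibitors of apoptosis, and Endog, a mitochondrial nuclease, fell 1.77-, 1.28- and 1.7-fold (adjusted p = 1.42e-07, 0.000467 and 0.000144). Of 13 other genes of nucleotide excision repair and lesion bypass 4 rose and 6 fell (76.9%), with a median of -0.10. Cetn2, a centrin that binds the Xpc protein, fell 2.43-fold (-1.28 ± 0.07, adjusted p = 4.53e-08), Ercc1 and Ercc2 fell 1.33- and 1.34-fold (adjusted p = 0.000269 and 0.000538), and the bypass polymerase Polh rose 1.33-fold (adjusted p = 3.38e-05).

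**Figure D4:**
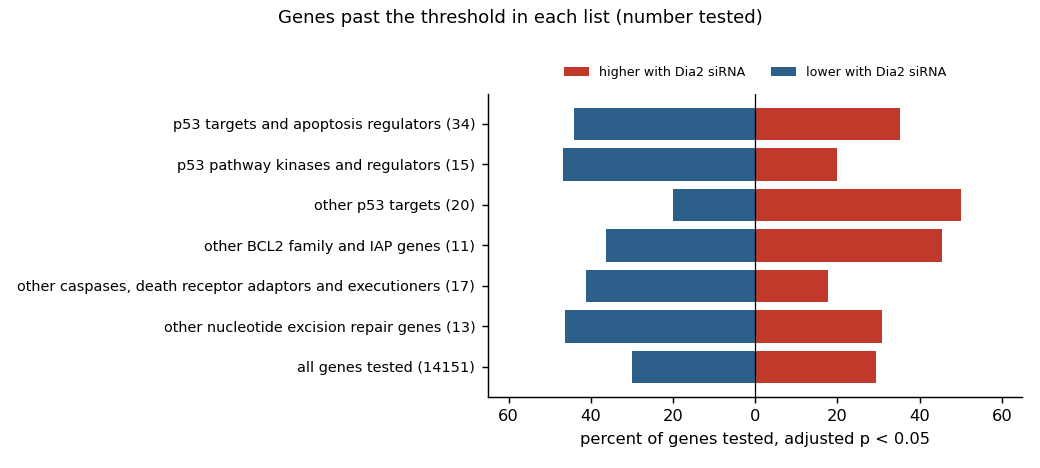
Percent of the tested genes of each list that rose (red, right) or fell (blue, left) at an adjusted p under 0.05, with the number tested in parentheses. The 34 genes are at the top, with 12 higher and 15 lower, and all 14151 genes are at the bottom, with 29.3% higher and 29.9% lower.

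Short words in the 3′ UTRs were compared as well, because words in a 3′ UTR can be read by small RNAs, an siRNA included. TATGTGAA and GCAGTAC had been picked from the fold changes of these same data, members included, so they support nothing here. The 8-base word occurred in 619 of 12084 tested genes with an annotated 3′ UTR (5.12%), whose median log2 fold change was -0.14, against 0.01 for genes without it. Of the 34 genes 5 held it, with capitals marking the word in GENCODE M21 transcripts (GRCm38):
Zmat3: atggagtgttaTATGTGAActtgtgttcac
Bid: tgttctaaaaaTATGTGAAttgtcttaagt
Mdm2: gagttaaagacTATGTGAAggattgtatat
Trp53inp1: aaacatactgtTATGTGAAgtattattcct
Bcl2: aacaattaagtTATGTGAAagcaatcatta

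Zmat3 (word at chromosome 3, 32340198 to 32340205, minus strand), Bid (chromosome 6, 120893172 to 120893179, minus strand) and Mdm2 (chromosome 10, 117689779 to 117689786, minus strand) were among the 15 falls. Trp53inp1 (chromosome 4, 11171527 to 11171534, plus strand) did not pass, and Bcl2, where the word lies in the 3′ UTR of transcript Bcl2-202 (chromosome 1, 106711308 to 106711315, minus strand), rose. The shorter TATGTGA (13.6% of genes) was held by 9 members, these 5 and Apaf1 and Pmaip1, which fell, and Mdm4 and Rrm2b, which did not pass. The Mdm4 word, in transcript Mdm4-206 (chromosome 1, 132962997 to 132963003), lies outside the counted gene (132989845 to 133025348). ATGTGAA (18.4% of genes) was held by 12, of which Bcl2, Bcl2l11, Fas, Gadd45a, Perp and Aen rose, Mdm2, Bid and Zmat3 fell, and Mcl1, Ccng1 and Trp53inp1 did not pass. The Aen word, in transcript Aen-203 (chromosome 7, 78910301 to 78910307), also lies outside the counted gene (78895927 to 78908833). Trp53 held none of these. GCAGTAC, found in 6.13% of genes with a median log2 fold change of 0.23, occurred in 2 copies in the 3′ UTR of transcript Bcl2-201 and in 1 copy in that of Casp9, which fell. The part of these words in the results was not tested.

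The Dia2 siRNA is shown because its own seed could match other transcripts. Capitals mark the stretch that pairs with bases 2 to 8 of its antisense strand:
Dia2 siRNA: cagagtccatgattcagAACTTAAt

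That 7-base match, AACTTAA, lay in the 3′ UTRs of 13.8% of genes, with a median log2 fold change of 0.05, against -0.01 for genes without it. Of the 34 genes 5 held it, namely Mdm4, Bid, Trp53inp1, Aen and Rrm2b. Of these Bid fell, Aen rose and the others did not pass. Apaf1, Zmat3, Fas, Bcl2, Perp and Trp53 did not hold it in the transcripts searched. With 1 siRNA against Dia2, effects of the loss of Dia2 and effects of this siRNA on other transcripts cannot be told apart. Effects of the control siRNA on other transcripts cannot be told apart from these either.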

How the data were processed

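Per the file headers, the deposited table gives for each library a gene count and an RPKM value, with a coding length per gene. TopHat2 2.0.6, HTSeq and bcl2fastq are listed, without roles, in the submitters' processing notes, and the builds listed there, hg19 and GRCh37, are human. The table holds mouse genes, and 99.4% of 20720 rows with a RefSeq symbol, the 34 members included, overlapped that gene in GRCm38.p6, so coordinates were read as GRCm38. The sources used here do not state the annotation, the strand setting or the treatment of multiply matching reads. The RPKM values deposited by the authors equal the count over length and 1 total per library. No replicate pair agreed within sampling noise (chi-square per degree of freedom on halved counts at least 7.04).

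Counts were filtered by group with filterByExpr (settings minimum count 10 and minimum total count 15) and scaled by TMM. They were tested with edgeR 4.0.16 (R 4.3.3), quasi-likelihood with robust dispersions and Benjamini-Hochberg adjustment over all genes tested at 0.05. The SE is the log2 fold change divided by the square root of F. Alternatives are given in the closing section. Members and lists were chosen with earlier results of these data known. Named genes are all members, Diaph3, Cdkn1a, and up to 4 called genes with the largest change from each other list. Older symbols were replaced for 5 listed genes.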

Additional observations from a re-analysis of the deposited data

How the results depend on the processing

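The counts of members past the threshold stayed within 1.5 times of 12 higher and 15 lower under every alternative run: DESeq2 size factors, upper-quartile or no composition factors, no low-count filter, a floor on mean CPM, DESeq2 1.42.0, limma-voom (limma 3.58.1), halved counts and each library left out (12 to 15 higher, 14 to 15 lower). Halved counts, like the others, were planned, while leaving out the Rn45s-rich library of each group or the Rn45s row was chosen after seeing the data. Over all genes, leaving out a library gave 3651 to 4512 higher and 3677 to 4681 lower, and no scaling moved the median log2 fold change of all genes by more than 0.1. With the replicate number as a block, 12 members were higher and 15 lower (all genes, 3877 and 3895). Same-numbered libraries did not deviate together (correlations 0.0036, -0.0014 and -0.0844 for numbers 1, 2 and 3). The highest correlation of any library pair across groups was 0.0542. With 3 libraries in a group these values cannot tell whether same-numbered libraries were handled together, and the labels give only a number.

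The sign changed under some alternatives for 4 members that had not passed. Mcl1 stood at 0.026 with upper-quartile factors, 0.0090 with the floor on mean CPM, 0.0097 without the Rn45s-rich libraries and -0.052 to 0.030 with a library left out. Ddb2 stood at 0.0087 with upper-quartile factors, 0.081 without the Rn45s-rich libraries and -0.11 to 0.069 with a library left out. Mdm4 stood at 0.018 without those libraries and -0.10 to 0.034 with 1 left out, and Trp53inp1 at 0.082 and -0.15 to 0.13. Rrm2b passed without the Rn45s-rich libraries (0.26, adjusted p = 0.0037). The cause was not tested. Depth limits statements on Perp and Ddb2, the scarcest members.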

Other observations

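A few genes of the other lists were too scarce to test. Trp73, the remaining p53 relative, had 6, 4 and 12 counts in Dia2 libraries and 0, 2 and 0 counts in control libraries. The BH3-only genes Bik and Hrk had 2, 8 and 4 and 8, 4 and 2 counts in Dia2 libraries, against 2, 4 and 2 and 2, 4 and 0 counts in control libraries. Bcl2l10, a BCL2 relative, had at most 2 counts in any library.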
